A study of Homo sapiens with 6 samples.

Results

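The latent TGFβ binding proteins and the microfibril genes around them were examined in H2087-LCC cells, as a set of 10 genes chosen by symbol out of 21293 in the table of normalized counts. The set holds the 4 latent TGFβ binding proteins (LTBP1, LTBP2, LTBP3 and LTBP4), the fibrillins FBN1 and FBN2, the elastic fibre genes ELN, FBLN5 and EMILIN1, and LRRC32, which encodes the cell surface anchor GARP. All 10 symbols were found in the table, 8 reached a mean of at least 10 normalized counts over the 6 libraries and were tested, and ELN and LRRC32 did not.

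H2087-LCC is a latency competent cancer cell population, derived from the stage I human lung adenocarcinoma line H2087, that forms dormant metastases. The study sequenced RNA from 3 groups of 2 libraries: cells kept in the TGFβ receptor kinase inhibitor SB505124 (SB) at 2.5 µM for 3 days, cells given TGFβ at 100 pM for 3 days, and cells given TGFβ at 100 pM for 7 days. SB was sampled on day 3 only. In the comparison of 7 days of TGFβ with SB, the agent and the time in culture therefore cannot be told apart. In the study, SB served as a baseline that blocks the TGFβ signaling of the cells themselves, and no group was left untreated. In each difference from SB, the addition of TGFβ and the absence of the inhibitor therefore cannot be told apart. In the study the paired libraries are described as technical replicates, and the p-values therefore measure the spread between these libraries and may leave out variation between cultures.

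TGFβ is secreted as an inactive complex in which the cytokine is held by its own propeptide, and the propeptide is usually bonded to an LTBP. The LTBPs anchor this latent complex on fibrillin microfibrils, the thin filaments of the extracellular matrix that also scaffold elastin, and integrins or proteases release the active cytokine from that store. LTBP1 and LTBP3 bind the latent forms of all TGFβ isoforms and LTBP4 binds latent TGFβ1 weakly, whereas LTBP2 does not bind latent TGFβ and instead competes with LTBP1 for the same site on fibrillin-1.

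The promoter sequences of LTBP1, LTBP2, LTBP3 and FBN1 are printed because these 4 abundant members were higher at 7 days than at 3 days. They are the 250 bases before the RefSeq transcript start on GRCh38.p14, given 5′ to 3′ on the strand of the gene, and for LTBP1 and LTBP3, which have further starts, the window of the start farthest upstream. Capitals mark matches, on either strand, to CAGAC (on the other strand GTCTG), which holds the core that SMAD proteins bind, to the AP-1 motif TGANTCA, or to the TEAD motif CATTCC (on the other strand GGAATG).
LTBP1, chr2:32946703-32946952, plus strand: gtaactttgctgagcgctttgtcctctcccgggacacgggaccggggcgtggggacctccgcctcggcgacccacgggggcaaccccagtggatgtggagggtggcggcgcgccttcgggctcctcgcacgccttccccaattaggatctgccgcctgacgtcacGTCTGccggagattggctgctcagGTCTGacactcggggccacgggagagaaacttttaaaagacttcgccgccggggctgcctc
LTBP2, chr14:74612238-74612487, minus strand: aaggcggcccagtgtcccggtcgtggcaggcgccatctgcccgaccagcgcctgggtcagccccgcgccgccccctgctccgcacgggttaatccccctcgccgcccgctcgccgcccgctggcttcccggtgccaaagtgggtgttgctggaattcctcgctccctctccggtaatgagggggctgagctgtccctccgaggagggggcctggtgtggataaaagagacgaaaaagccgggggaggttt
LTBP3, chr11:65558360-65558609, minus strand: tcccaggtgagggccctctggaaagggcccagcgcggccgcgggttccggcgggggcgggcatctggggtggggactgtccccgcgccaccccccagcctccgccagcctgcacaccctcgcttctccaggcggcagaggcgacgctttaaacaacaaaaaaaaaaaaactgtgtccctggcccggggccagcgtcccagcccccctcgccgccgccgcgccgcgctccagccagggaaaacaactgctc
FBN1, chr15:48644971-48645220, minus strand: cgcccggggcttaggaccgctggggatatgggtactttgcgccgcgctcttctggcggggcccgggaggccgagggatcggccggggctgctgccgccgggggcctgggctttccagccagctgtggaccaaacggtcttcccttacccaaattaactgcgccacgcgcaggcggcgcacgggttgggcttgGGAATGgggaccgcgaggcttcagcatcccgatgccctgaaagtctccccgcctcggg
The LTBP1 window held 2 copies of GTCTG, the FBN1 window held 1 copy of GGAATG, and the LTBP2 and LTBP3 windows held none of these letters. RefSeq gave 12 such windows for 7 of the 10 genes, with none for ELN, LRRC32 and EMILIN1. CAGAC was found in 5 of the 12 windows (LTBP1, LTBP4 and FBLN5), against 38% of all 35116 promoter windows of the same length. CATTCC was found in 2 (LTBP4, where it overlaps the CAGAC match, and FBN1), against 11.9%, and TGANTCA in 0, against 6.57%. A match describes the letters in the window and does not show that a factor binds there.

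Cells given TGFβ carried more RNA of 4 of the 8 tested genes than cells in SB at 3 days, and of 6 of the 8 at 7 days. LTBP2 rose most, by 30.8-fold at 3 days and 61.4-fold at 7 days. FBN1 rose by 2.34-fold and 3.03-fold, and LTBP1 by 1.29-fold and 2.01-fold. LTBP3 did not pass the test at 3 days and rose by 6.88-fold from 3 days to 7 days, to 4.56-fold its level in SB. FBN2, the second fibrillin and a rare transcript here, was lower at 7 days than in the other groups. Fold changes are on the scale of log2(normalized count + 1). In bulk RNA, a change in the number of cells that carry a transcript and a change in its amount per cell cannot be told apart.

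At 3 days, 4 of the 8 tested genes differed from SB (limma, Benjamini-Hochberg adjusted p under 0.05 over 14395 genes). All 4 were higher (LTBP1, LTBP2, FBN1 and FBLN5) and 0 were lower, with a median log2 fold change of 0.42 over the 8. Of all genes tested, 29.0% differed in this comparison, 14.9% higher and 14.0% lower, and their median log2 fold change was -0.02. With 7 days of TGFβ, 7 of the 8 differed from SB, 6 higher and 1 lower, with a median of 1.10. The background was larger at this time: 54.5% of all genes differed, 27.7% higher and 26.9% lower, around a median of -0.00081. Between 7 days and 3 days, 5 of the 8 differed, 4 higher (LTBP1, LTBP2, LTBP3 and FBN1) and 1 lower (FBN2), with a median of 0.27. Over all genes, 33.2% differed between the times, 17.0% higher and 16.2% lower at 7 days, with a median of 0.02. The count at 3 days was the least stable and was 2 without SB replicate 2 and 5 without SB replicate 1. Both comparisons with SB share the same SB libraries. The smallest p that a two-sided exact permutation test can reach with 2 libraries in each group is 0.333, and p-values from limma, fitted across all genes, are given instead.

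**Figure D1:**
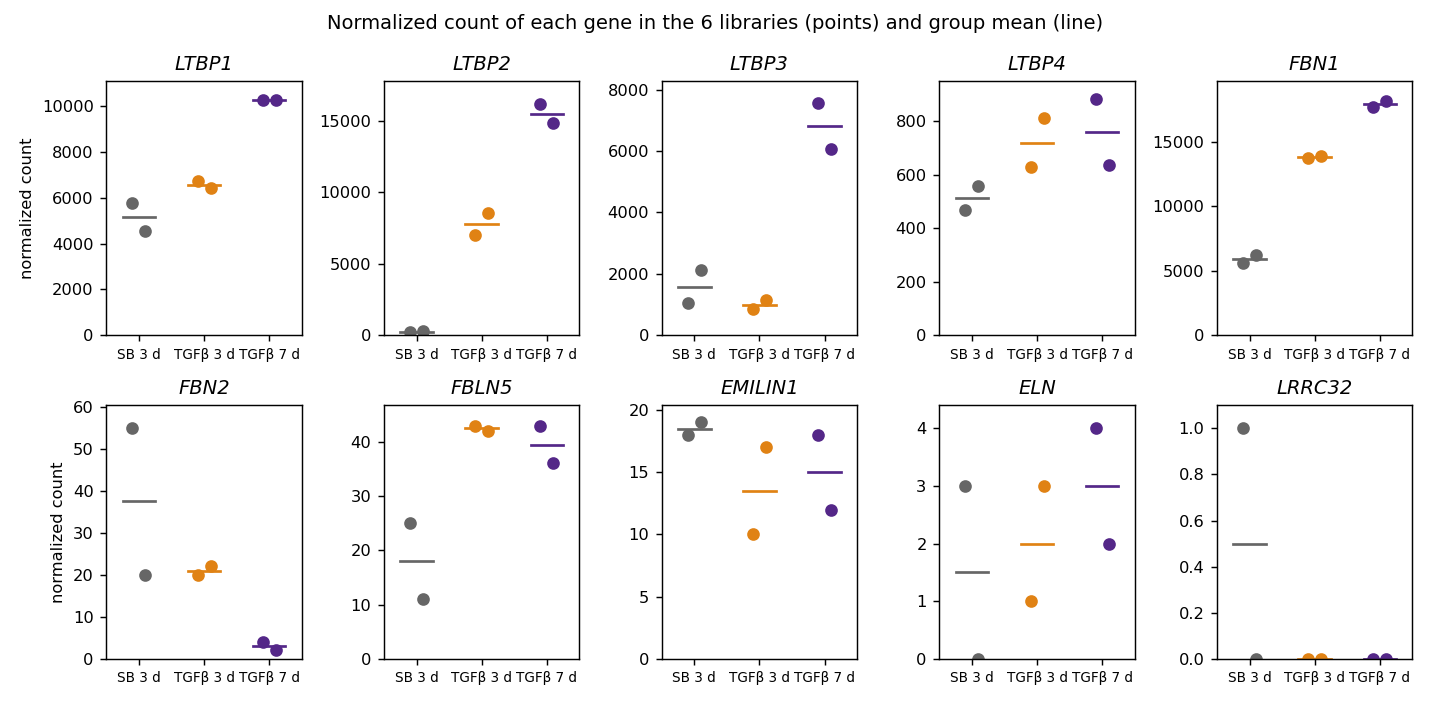
Normalized count (linear vertical axis from 0, a separate scale for each gene) of the 10 genes in the 2 libraries of SB at 3 days, TGFβ at 3 days and TGFβ at 7 days. Points are libraries and lines are group means. LTBP2 went from 242 and 261 in SB to 16149 and 14884 at 7 days, LTBP3 was high only in the 7-day libraries, and FBN2 was at 4 and 2 there.

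Among the LTBPs that bind latent TGFβ, LTBP1 had the most abundant transcript in SB. LTBP1 (chr2:33172020-33624576 on GRCh37, plus strand, 34 exons in the canonical transcript) had 5770 and 4530 normalized counts in SB, 6719 and 6429 at 3 days, and 10288 and 10258 at 7 days. The libraries of the 3 groups did not overlap and stepped up from SB to 3 days to 7 days. LTBP1 exceeded SB by 0.36 on the log2 scale at 3 days (SE 0.11, adjusted p = 0.0234, limma) and by 1.01 at 7 days (SE 0.11, adjusted p = 1.04e-05), and LTBP1 was a further 0.64 higher at 7 days than at 3 days (adjusted p = 0.00109). The call at 3 days rested on the lower SB library: without SB replicate 2 the log2 fold change was 0.19 (adjusted p = 0.126), and without TGFβ 3-day replicate 1 the adjusted p was 0.113. It was also lost with no low-value filter (adjusted p = 0.108) or no trend in limma (adjusted p = 0.120).

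LTBP3, the other family member that binds every latent isoform, showed a different order of the groups. LTBP3 (chr11:65306030-65326401, minus strand) had 1035 and 2126 normalized counts in SB, 851 and 1133 at 3 days, and 7557 and 6058 at 7 days. The SB and 3-day libraries overlapped, and both 7-day libraries stood above all others. Its 3-day difference from SB was -0.59 on the log2 scale, with a 95% interval of -1.15 to -0.04 and an adjusted p of 0.104 (limma). At 7 days it was 2.19 higher than in SB (SE 0.26, adjusted p = 2.37e-05) and 2.78 higher than at 3 days (SE 0.26, adjusted p = 2.74e-05). By absolute log2 fold change between 7 days and 3 days, LTBP3 ranked 44 of the 14395 genes tested. The 3-day value depended on which SB library was used, since it was -1.11 (adjusted p = 0.00175) without SB replicate 1 and -0.08 without SB replicate 2, and it also passed the threshold without TGFβ 3-day replicate 2 (-0.80, adjusted p = 0.0464). The GC content of the LTBP3 transcript is 67.7%, and the difference between the 2 libraries of a group followed GC content across 10471 genes (Spearman's rho 0.20 in SB, 0.75 at 3 days and -0.73 at 7 days, a description across genes). Within the 3-day and 7-day pairs LTBP3 differed by 1.33-fold and 1.25-fold, and once each library was corrected for GC content and length its rise from 3 days to 7 days was 2.67 on the log2 scale. The part of GC content in the spread between the SB libraries was not tested.

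LTBP4 had the smallest difference from SB of the LTBPs at 7 days. LTBP4 (chr19:41098789-41135723, plus strand) had 468 and 559 normalized counts in SB, 627 and 810 at 3 days, and 884 and 636 at 7 days. Its TGFβ libraries were above both SB libraries, and the 3-day and 7-day libraries overlapped. The 3-day difference from SB was 0.48 on the log2 scale (95% interval 0.10 to 0.86, adjusted p = 0.0593, limma) and the 7-day difference was 0.55 (adjusted p = 0.0183). Between the times the difference was 0.07, with an interval of -0.31 to 0.45. The call at 7 days rested on single libraries, with an adjusted p of 0.212 without TGFβ 7-day replicate 1 and 0.130 without SB replicate 1. Like LTBP3, its transcript is rich in GC (66.6%), and after the GC and length correction the 3-day difference was 0.65 with an adjusted p of 0.00043. Over all alternatives that kept the 6 libraries or the 4 compared, the adjusted p of the 3-day difference ran from 0.00043 to 0.203.

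LTBP2, the family member that does not carry latent TGFβ, had the largest rise of the 10 genes. LTBP2 (chr14:74964886-75079081, minus strand, 36 exons in the canonical transcript) had 242 and 261 normalized counts in SB, 7042 and 8575 at 3 days, and 16149 and 14884 at 7 days. No library of one group came near another group. Above SB it stood 4.94 higher on the log2 scale at 3 days (SE 0.11, adjusted p = 7.00e-11, limma) and 5.94 higher at 7 days (SE 0.11, adjusted p = 7.07e-12), which ranked 25 and 35 by absolute size among the 14395 genes. Between 3 days and 7 days it rose by a further 0.996 (adjusted p = 6.97e-05). Leaving out each library in turn kept the 3-day value between 4.80 and 5.09 and the 7-day value between 5.88 and 6.0.

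Because the LTBPs differ in transcript length, their levels were compared per kilobase of the canonical transcript. The summed LTBP level in SB was 1252 ± 39.4 normalized counts per kilobase (SD, n = 2). It was 2284 ± 164 after 3 days of TGFβ and 4976 ± 364 after 7 days. In SB, LTBP1 made up 63.4% ± 12.8 (SD, n = 2) of that sum and LTBP2 2.37% ± 0.05. LTBP2 reached 40.3% ± 2.72 at 3 days and 36.9% ± 0.57 at 7 days. The LTBP1 share was 44.4% ± 4.57 at 3 days and 31.8% ± 2.26 at 7 days, although the LTBP1 transcript itself rose. LTBP3 took 25.9% ± 11.9 in SB, 8.94% ± 1.16 at 3 days and 28.2% ± 2.34 at 7 days, and LTBP4 had 8.25% ± 0.78 in SB and 3.06% ± 0.49 at 7 days. These shares are descriptions and were not tested. They depend on the length chosen: over the union of all annotated exons, the share of LTBP3 was 14.9% (SB), 4.44% (3 days) and 15.5% (7 days), and that of LTBP2 was 2.99%, 44.5% and 45.1%.

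**Figure D2:**
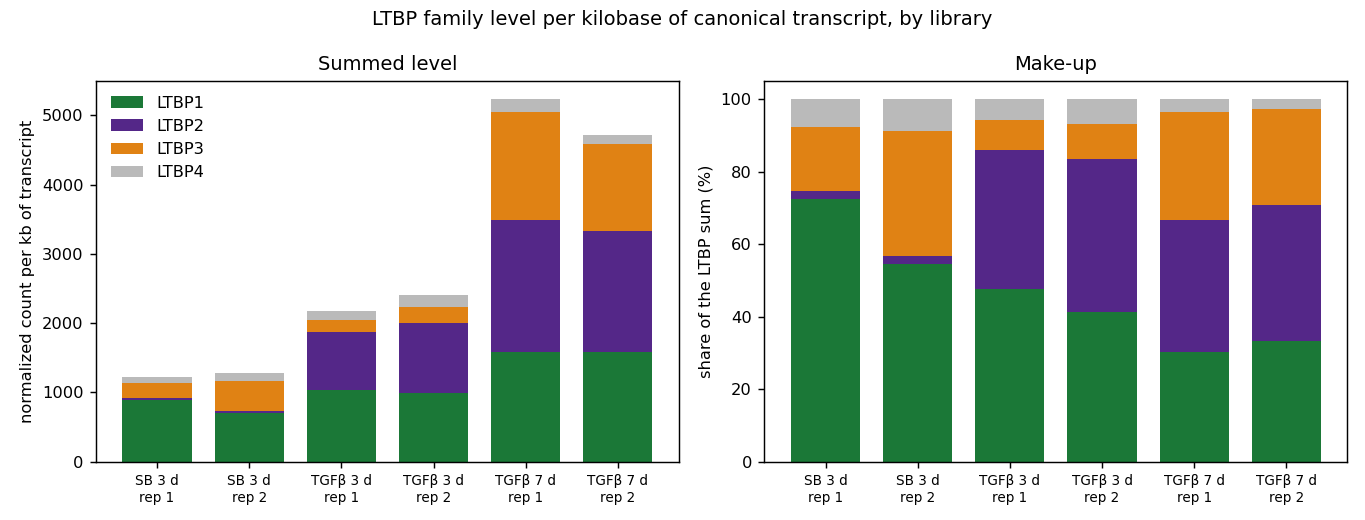
Left, summed level of the 4 LTBPs in each of the 6 libraries in normalized counts per kilobase of canonical transcript, stacked by gene. Right, the same bars as shares of the sum in percent. LTBP2 is a thin layer in SB (2.37% on average) and 40.3% at 3 days, and LTBP3 widens from 8.94% at 3 days to 28.2% at 7 days.

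The LTBP transcripts were also set against the ligand transcripts. TGFB1, TGFB2 and TGFB3 summed to 319 and 329 normalized counts per kilobase in the SB libraries, 567 and 710 at 3 days, and 987 and 827 at 7 days. TGFB1 made up 50.6% of the ligand sum in SB and 94.1% at 7 days, while TGFB2 went from 44.9% to 2.17%. The sum of LTBP1 and LTBP3, the members that bind all latent isoforms, came to 3.45 ± 0.01 times the ligand sum in SB (SD, n = 2). After 3 days of TGFβ this ratio was 1.93 ± 0.29, and after 7 days 3.31 ± 0.17. The 3-day libraries, at 2.13 and 1.72, lay below the other 4, which ran from 3.19 to 3.46. This ratio is of RNA levels and was not tested. Shares and ratio depend on the length chosen. Over the union of all annotated exons, TGFB1 and TGFB2 made up 48.1% and 48.6% of the ligand sum in SB. The ratio was then 2.89 ± 0.23 in SB, 1.83 ± 0.30 at 3 days and 2.60 ± 0.20 at 7 days. Other genes share 22.7% of the TGFB2 exon bases on the same strand and 11.6% on the other strand.

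FBN1 and FBN2 encode fibrillin-1 and fibrillin-2, which form the core of the microfibril. FBN1 (chr15:48700510-48937918, minus strand, 66 exons in the canonical transcript) had 5619 and 6234 normalized counts in SB, 13755 and 13916 at 3 days, and 17726 and 18165 at 7 days. The groups were separate and the libraries within a group were close to each other. On the log2 scale FBN1 was 1.22 higher at 3 days than in SB (SE 0.08, adjusted p = 5.03e-07, limma) and 1.60 higher after 7 days (SE 0.08, adjusted p = 2.25e-08). From 3 days to 7 days FBN1 rose by 0.38 (adjusted p = 0.00481), which missed the threshold without TGFβ 7-day replicate 2 (adjusted p = 0.0599).

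FBN2, known as the fibrillin of embryonic microfibrils, was rare in every library. FBN2 (chr5:127593601-127994878, minus strand) had 55 and 20 normalized counts in SB, 20 and 22 at 3 days, and 4 and 2 at 7 days. The SB libraries differed by 2.75-fold and the lower one matched the 3-day libraries, whereas both 7-day libraries were below all others. The log2 fold change at 3 days was -0.64 (adjusted p = 0.362, limma), and it was 0.07 without SB replicate 1. The 7-day libraries differed from SB by -3.15 (SE 0.49, adjusted p = 0.000219) and from the 3-day libraries by -2.50 (adjusted p = 0.00292). The 7-day libraries held an estimated 6 reads of FBN2 against 70 in SB, a 13.1-fold lower level. Its 95% counting interval was 5.71-fold to 36.8-fold and covers counting error only. Unlike the log2 fold change, this ratio is of summed reads, scaled by depth, with no added 1. Per kilobase, FBN1 made up 99.3% of the fibrillin sum in SB and 99.98% at 7 days, so FBN2 was a small fraction of the fibrillin RNA in each group.

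The elastic fibre genes of the set, FBLN5, EMILIN1 and ELN, were rare. FBLN5, which encodes fibulin-5, a protein that brings elastin to the microfibril, lies at chr14:92335755-92414331 (minus strand) and had 25 and 11 normalized counts in SB, 43 and 42 at 3 days, and 43 and 36 at 7 days. All 4 TGFβ libraries were above both SB libraries. FBLN5 exceeded SB by 1.30 on the log2 scale at 3 days (SE 0.36, adjusted p = 0.0189, limma) and by 1.19 at 7 days (SE 0.36, adjusted p = 0.0153), and the times differed by -0.11 with an interval of -0.90 to 0.69. Neither call held when single libraries were left out. Without SB replicate 2, the lower SB library, the 3-day difference was 0.74 (adjusted p = 0.0902) and the 7-day difference 0.63 (adjusted p = 0.0903). The 3-day call was also lost without either TGFβ 3-day library (adjusted p = 0.0763 and 0.0569), and the 7-day call without TGFβ 7-day replicate 1 (adjusted p = 0.0864). EMILIN1, which encodes a glycoprotein at the interface of elastin and microfibrils that also restrains the processing of the TGFβ precursor, lies at chr2:27301483-27309271 (plus strand) and had 18 and 19 normalized counts in SB, 10 and 17 at 3 days, and 18 and 12 at 7 days. Its groups overlapped or lay close together, and its log2 fold changes, -0.47 at 3 days and -0.31 at 7 days relative to SB, did not pass the test (adjusted p = 0.407 and 0.528). The 95% interval at 7 days ran from -1.17 to 0.55 on the log2 scale, so a difference in either direction within these bounds was not excluded.

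ELN (chr7:73442119-73484237, plus strand), which encodes elastin, had 3 and 0 normalized counts in SB, 1 and 3 at 3 days, and 4 and 2 at 7 days. LRRC32 (chr11:76368568-76381791, minus strand), whose product GARP displays latent TGFβ on regulatory T cells and platelets, had 1 and 0 in SB and 0 in the 4 TGFβ libraries. Both were at or near the 3 reads that a library listed at 0 allows, and no fold change was computed for them. The libraries carried abundant RNA for fibrillin-1 and close to none for elastin.

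**Figure D3:**
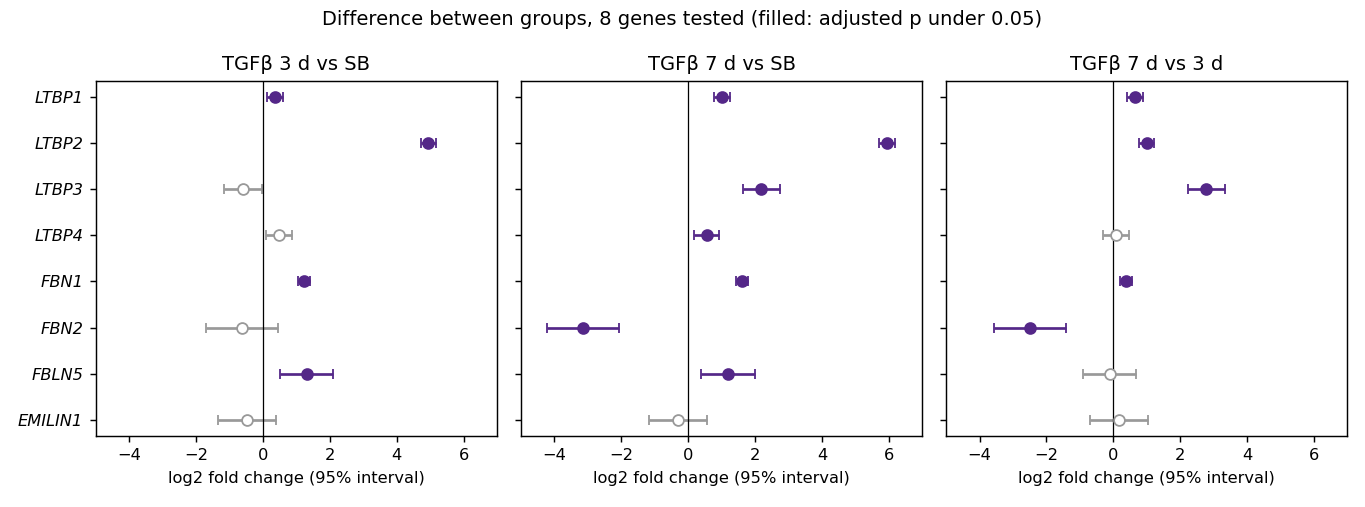
Log2 fold change of the 8 tested genes in the 3 comparisons, with 95% intervals from limma, on a linear axis in log2 units. Filled points passed an adjusted p of 0.05. LTBP2 stands at 4.94 and 5.94 relative to SB, and LTBP3 has the largest rise from 3 days to 7 days (2.78).

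Per kilobase of canonical transcript, the order of the levels changed with the group. In SB it ran LTBP1 (792 ± 135, SD, n = 2), FBN1 (511 ± 37.5), LTBP3 (327 ± 160), LTBP4 (104 ± 13) and LTBP2 (29.7 ± 1.59). No neighbours in this order overlapped, and LTBP3 varied most, at 214 and 440 in its libraries. At 3 days FBN1 led (1192 ± 9.81), ahead of LTBP1 (1011 ± 31.5) and LTBP2 (923 ± 128), which did not differ beyond their spread. By 7 days LTBP2 (1834 ± 106), LTBP1 (1580 ± 3.26), FBN1 (1546 ± 26.7) and LTBP3 (1409 ± 219) stood in that order, and FBN1 and LTBP3 did not differ beyond their spread. FBLN5, FBN2, EMILIN1, ELN and LRRC32 had group means of at most 16.2 per kilobase. The order depends on the length used: per kilobase of all annotated exons, FBN1 at 3 days (747 ± 6.15) came behind both LTBP1 and LTBP2 (895 ± 27.9 and 860 ± 119) and LTBP3 had 591 ± 92 at 7 days, below FBN1 at 969 ± 16.8.

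The genes whose profile over the 6 libraries was most like that of LTBP3 were MIR210HG, DDIT4, GATSL3, HAS2 and GABBR1. Likeness was the Euclidean distance between log2 values centred on their mean, over 11389 genes with a mean of at least 100, and it was 0.95 for MIR210HG, 0.96 for DDIT4, 0.99 for GATSL3, 1.07 for HAS2 and 1.11 for GABBR1. MIR210HG is the host transcript of miR-210, DDIT4 encodes a stress-induced inhibitor of mTORC1, and HAS2 encodes a hyaluronan synthase. DDIT4 had 1353 and 2164 normalized counts in SB, 1544 and 1640 at 3 days, and 6154 and 5783 at 7 days, the same order of group means and the same higher SB library as LTBP3. Each of the 5 genes was higher in SB replicate 2. They were chosen for likeness over these same libraries, so a shared pattern follows from the choice. HAS2 and GABBR1 differed from LTBP3 in the sign of the 3-day log2 fold change relative to SB, at 0.17 and 0.29. Against 3 days, these 5 genes were 1.86 to 2.05 higher at 7 days on the log2 scale, below the 2.78 of LTBP3.

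A further list of 25 genes for microfibril and elastic fibre assembly, none of them among the 10, included 16 that could be tested. At 3 days 8 of the 16 differed from SB, 7 higher and 1 lower, with a median log2 fold change of 0.52, where 29.0% of all tested genes differed. At 7 days 14 differed, 11 higher and 3 lower (median 1.10, against 54.5% of all genes), and between the times 10 differed, 8 higher and 2 lower (median 0.74, against 33.2%). The 3-day count was 4 without TGFβ 3-day replicate 2, and the count between the times was 5 without TGFβ 3-day replicate 1 or without either 7-day library. MFAP2 encodes the microfibril glycoprotein MAGP1. It had 153 and 210 normalized counts in SB, 871 and 998 at 3 days, and 3355 and 2811 at 7 days. At 7 days MFAP2 was 4.09 higher than in SB on the log2 scale (adjusted p = 1.98e-09, limma). VCAN, the large proteoglycan versican that binds fibrillin, rose by 2.27 and 4.31 on the log2 scale at the 2 times. THSD4, an ADAMTS-like protein that promotes microfibril assembly, rose by 1.16 and 1.56 on the same scale. FN1, the fibronectin on which microfibrils assemble, rose by 1.10 and 1.71 on the log2 scale. EFEMP2 (fibulin-4) was 1.70 higher at 7 days on the log2 scale (adjusted p = 0.000594, limma). Its 3-day value of 0.56 did not pass (adjusted p = 0.198). EFEMP1 (fibulin-3) fell at 7 days (adjusted p = 1.36e-06), from 3680 and 3527 normalized counts in SB to 1692 and 1792.

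A list of 20 genes that process or activate latent TGFβ had 19 tested. Of these, 17 differed from SB at 3 days, 13 higher and 4 lower (median 1.31, against 29.0% of all genes), 17 at 7 days, 14 higher and 3 lower (median 1.53, against 54.5%), and 12 between the times, 11 higher and 1 lower (median 0.41, against 33.2%). The last count was 7 without TGFβ 7-day replicate 1. The integrin β6 gene ITGB6, whose product pulls active TGFβ from LTBP-anchored complexes, had 13 and 22 normalized counts in SB, 693 and 607 at 3 days, and 1165 and 1374 at 7 days, a log2 fold change of 5.18 and then 6.14. ITGB8, another integrin subunit known for activating latent TGFβ, had 481 and 675 in SB, 110 and 95 at 3 days, and 674 and 676 at 7 days. The difference of ITGB8 from SB at 3 days was -2.47 on the log2 scale (adjusted p = 7.15e-07, limma). ITGB8 rose by 2.71 from 3 days to 7 days. Its 7-day difference from SB, 0.24, did not pass the test (adjusted p = 0.2435, limma). ITGB3 rose by 2.11 and 3.69 on the log2 scale. On the same scale THBS1, which encodes thrombospondin-1, rose by 3.53 and 3.37, and BMP1, a protease that cleaves LTBP1, by 1.66 and 2.90. MMP14, a membrane matrix metalloproteinase, was 2.01 higher on the log2 scale at 3 days than in SB and 2.49 higher at 7 days. TGFB2 fell, with log2 fold changes of -1.86 and -2.92, as did PLAT, the tissue plasminogen activator gene (-1.54 and -1.17), and NRROS, which encodes another anchor of latent TGFβ (-1.22 and -1.32).

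**Figure D4:**
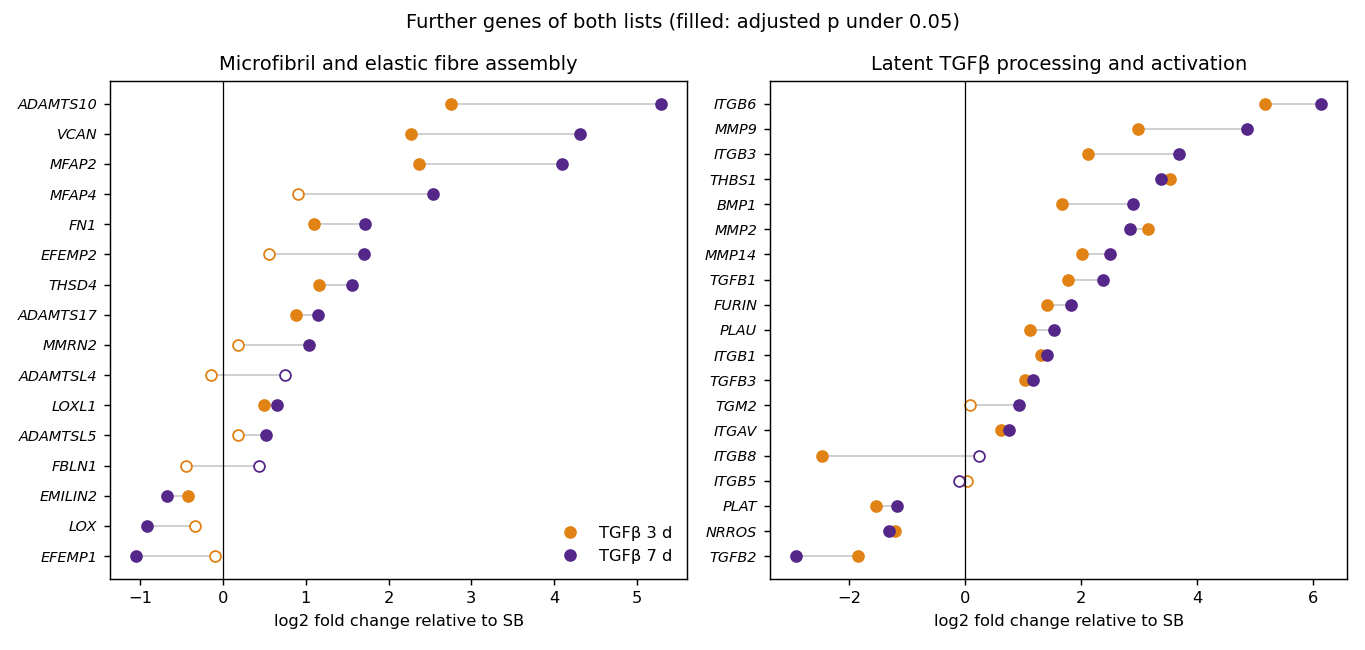
Log2 fold change relative to SB at 3 days (orange) and 7 days (purple) of the 16 tested genes of microfibril and elastic fibre assembly (left) and the 19 tested genes of latent TGFβ processing and activation (right). Filled points passed an adjusted p of 0.05. ITGB6 reached 6.14, and ITGB8 moved from -2.47 at 3 days to 0.24 at 7 days.

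The treatment labels were checked on known TGFβ targets and the cell label on markers. The target PMEPA1 rose at both times, by 5.24 and 6.42 on the log2 scale, and TGFBI by 2.68 and 3.77. The 9 epithelial and lung markers each reached 100 normalized counts in at least 1 library, with sums of 105957 to 123822 in SB, 98913 to 111202 at 3 days and 89158 to 102076 at 7 days. KRT8 and KRT18 made up most of these sums. CDH1 had 371 and 635 in SB and 9 to 28 in the TGFβ libraries, and EPCAM had 10180 and 9106 in SB and 2988 and 3277 at 7 days. The lung markers were also lower in all 4 TGFβ libraries, with NKX2-1 at 2784 and 2908 in SB and at most 857 there, and NAPSA at 99 and 234 in SB and at most 9 there. SFTPB differed between the SB libraries, at 1104 and 8273, as LTBP3 did, and was at 19 to 24 in the TGFβ libraries. KRT7 went the other way, with 5860 and 6183 in SB, 15440 and 18905 at 3 days, and 13979 and 11230 at 7 days. KRT8 and KRT19 overlapped between SB and the TGFβ groups. The part of these marker differences in the results was not tested. Of 12 markers of leukocytes, endothelium, fibroblasts, mural cells and red cells in the table, 10 were below 100 in each library and summed to 70 to 99, and CD68 and RGS5 were higher. LUM and HBB were at 0 in all libraries, and the fibroblast marker DCN was at 1 or less. Normalized counts summed to between 34306283 and 36340734 per library, from an estimated 32000000 to 40000000 reads, where 1 read was worth 0.896 to 1.10 normalized counts. The library kit does not mark strand, and at most 3.39% of the exon bases of any of the 10 genes lie under an exon of a gene on the other strand.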

How the data were processed

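RNA-seq of H2087-LCC cells was analyzed in 3 groups of 2 libraries. The authors checked reads with FastQC 0.11.5, aligned them to hg19 with STAR, assigned reads with a unique alignment using HTSeq 0.6.1p1 and normalized by library size. The deposited whole-number normalized counts are recorded here as a score. Scaling and rounding by the authors keep the exact read counts from being recovered. Read numbers given here are estimates. The worth of 1 read in each library was fitted to gaps and pile-ups among its low values. The annotation release is not given in the sources used here. Values were taken as log2(value + 1), and the limma test (3.58.1, R 4.3.3, empirical Bayes with trend, 3 residual degrees of freedom) was run on the 14395 genes whose mean reached 10, with Benjamini-Hochberg adjustment at 0.05. The negative binomial test of the study needs raw counts and was not run. Gene positions, lengths and GC content came from GENCODE on GRCh37.

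The 10 genes, the further lists and the tests were chosen with earlier results of these data known. All 10 are named. List genes are named if past the threshold with an absolute log2 fold change over 1 and a mean of at least 100, up to the 4 largest rises and falls per comparison. CDH1, SFTPB, KRT7, KRT19, DCN, LUM, HBB, CD68 and RGS5 were named after their values were seen. The 5 genes most like LTBP3 were named by distance. Alternatives were pseudocounts of 0.5 and 5, no filter, a mean of at least 50, other scalings, no trend, 4 libraries only, the replicate block and each library left out. A GC and length correction (loess, span 0.5), a crossed replicate block and union exon lengths were added after the data were examined. The fit was tested on simulated data with known changes, placed in genes with a mean of at least 50. Changes in rarer genes were not simulated. The same spread setting was used for every gene, and no GC trend between libraries was simulated.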

Additional observations from a re-analysis of the deposited data

Results flagged for a closer look

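For 5 of the 8 tested genes the effect of TGFβ relative to SB differed between 7 days and 3 days, against 33.2% of all genes tested. The limma test was of the difference itself, which equals the contrast of 7 days with 3 days because both effects use the same SB libraries. The log2 effect was larger at 7 days by 0.64 for LTBP1, 0.996 for LTBP2, 2.78 for LTBP3 and 0.38 for FBN1. For FBN2 the difference was -2.50, with the 7-day libraries at 4 and 2 normalized counts. Time in culture and time in TGFβ cannot be told apart in these differences. No group was large enough to look for a single library that stands apart from the others.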

How the results depend on the processing

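Of the log2 fold changes recomputed for the 8 tested genes under the alternatives, 386 kept their direction and their side of the threshold, 13 passed it newly, 17 lost it and 7 turned their direction, none of these 7 past the threshold in the reported fit. At an adjusted p of 0.05, the calls of LTBP2 in each comparison, of FBN1 relative to SB, and of LTBP1, LTBP3 and FBN2 at 7 days relative to SB and to 3 days held under each alternative that gave them a value. The number of genes called at 3 days relative to SB, 4 as reported, was 2 without the filter on low values and 2 without the trend in limma (LTBP1 and FBLN5 lost their calls in both), and it was 2 to 5 with each library left out, with 2 without SB replicate 2. The calls of LTBP4 and FBLN5 at 7 days relative to SB were lost without the filter (adjusted p = 0.09996 and 0.0709), and that of LTBP4 without the trend (adjusted p = 0.0817). The number called between 7 days and 3 days, 5 as reported, was 2 with an absolute log2 fold change over 1 required as well, where LTBP1, LTBP2 and FBN1 dropped out. For 3 days relative to SB, FBN2 ran from -1.35 to 0.0656 with each library left out. For 7 days relative to 3 days, LTBP4 ran from -0.16 to 0.31, FBLN5 from -0.23 to 0.0166 and EMILIN1 from -0.20 to 0.51 in the same way, and LTBP4 was -0.0438 with the GC and length correction. The cause of these changes was not tested. Of the further lists, the 8 microfibril genes called at 3 days were 4 without the filter, and 5 without the trend, with only the 4 libraries compared or with the fold requirement. The 10 called between the times were 5 without the filter, 6 without the trend and 4 with the fold requirement, and the 12 processing and activation genes called between the times were 8, 7 and 5. With a minimum mean of 50 the rarest genes left the test by construction.

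The labels do not say that a replicate number marks a shared culture, and the same-numbered libraries deviated together in 1 of the 3 pairs of groups only (Pearson's r over 11389 genes 0.21 for SB and 3 days, -0.13 for SB and 7 days and -0.65 for 3 days and 7 days). With the replicate block, 6 of the 8 genes were called at 3 days, 7 at 7 days and 5 between the times, the additions at 3 days being LTBP3 (lower, log2 fold change -0.59, adjusted p = 0.00925) and LTBP4 (higher, adjusted p = 0.0307). With the numbers crossed at 7 days, an alternative added after the data were examined, the counts were 6, 7 and 5. Depth limits ELN, LRRC32, FBN2, FBLN5 and EMILIN1, which had 55 normalized counts or fewer in any library.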
